A study of Mus musculus with 4 samples.

Results

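The 10 genes described here make peptides for major histocompatibility complex (MHC) class I, load them or carry them to the cell surface, or switch the pathway on. They are Tap1, Tap2, Tapbp, Psmb8, Psmb9, Psmb10, B2m, H2-K1, H2-D1 and Nlrc5, out of 21887 protein-coding genes on the autosomes and sex chromosomes. They were chosen from the measured values: the locus shared by Tap1 and Psmb9 held one of the strongest regions seen only in the wild-type (WT) lists, and the other members were added from the same pathway. Every difference between WT and miR-187 given here is therefore a description with no test. For each gene, a peak was counted when its summit lay inside the gene or within 10 kb of either boundary. Each peak is given with its fold enrichment over local background and its −log10 q, where q is the peak caller's p adjusted for multiple testing, so a higher value is a stronger peak.

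The data were 4 lists of peaks from ATAC-seq, in which a transposase cuts and tags DNA that is not wrapped in nucleosomes, and the tagged fragments are sequenced. There were 2 libraries from WT mice and 2 from miR-187 mice, all from hearts at P0, the day of birth. WT replicates 1 and 2 are called WT1 and WT2, and the knock-in miR-187 replicates 1 and 2 are called KI1 and KI2. The miR-187 mice carried a knock-in of mmu-miR-187 at the Rosa26 site under the promoter and enhancer of mouse Tek (Tie2), which drive expression in endothelial cells. They were made with CRISPR/Cas9 on C57BL/6J, the strain of the reference genome. The study describes the genotypes of its mouse ATAC-seq comparison as +/+ and KI/KI (homozygous), whereas the labels give no zygosity. The study's methods describe endothelial cells captured with magnetic beads against CD31, whereas the labels name only heart tissue. The sources used here do not say how many hearts went into each library.

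The lists differed in length and depth before any gene was looked at. They held 9452 and 12298 peaks for WT1 and WT2, and 7496 and 1483 for KI1 and KI2. The genome-wide background density worked out from the peak statistics was 1752 and 5227 reads per Mb in WT, and 2016 and 1033 in miR-187. Thus WT1 and KI1 were of similar depth (ratio of KI1 to WT1 1.15), WT2 was 5.06 times as deep as KI2, and KI2 stood apart as the shallowest and shortest list. A gene without a listed peak may lack accessible chromatin, may come from fewer cells with it, or may lie under what that library could list, and peak lists cannot tell these apart. As a check of the labelled source, with 38.0%, 47.1%, 33.5% and 6.75% of all protein-coding genes having a peak within 10 kb in WT1, WT2, KI1 and KI2, 4, 8, 3 and 1 of 10 endothelial marker genes had one (40.0%, 80.0%, 30.0% and 10.0%), against 3, 2, 2 and 0 of 8 cardiomyocyte, 4, 2, 2 and 0 of 8 immune and 4, 5, 1 and 0 of 6 fibroblast marker genes. The endothelial share was near that of all genes in WT1, KI1 and KI2 and above it in WT2. Fibroblast genes had shares above those of endothelial and of all genes in WT (66.7% in WT1 and 83.3% in WT2). Their shares were below both in miR-187 (16.7% in KI1 and 0% in KI2). A peak in both WT lists and neither miR-187 list was seen for 3 of 6 fibroblast genes (Postn, Col1a2 and Pdgfra). The same held for 1 of 10 endothelial, 1 of 8 cardiomyocyte and 0 of 8 immune genes, and for 9.04% of all genes. The 3 fibroblast genes, 1 endothelial gene and 1 cardiomyocyte gene thus shared this pattern with 4 of the 10 members, which this contrast chose. The part of cell makeup in the results was not tested.

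Class I molecules show fragments of a cell's own proteins to CD8+ T cells. The proteasome cuts proteins into peptides, and Psmb8, Psmb9 and Psmb10 encode the catalytic subunits that replace the constitutive ones in the immunoproteasome. Tap1 and Tap2 form the transporter that pumps peptides into the endoplasmic reticulum, and Tapbp encodes tapasin, which bridges the transporter to empty class I molecules. H2-K1 and H2-D1 encode the classical heavy chains, B2m encodes the light chain beta-2-microglobulin, and Nlrc5 is a transactivator of class I genes. The pathway is induced by interferon gamma, and endothelial cells are among the cells that respond. In the mouse, 7 of the 10 genes lie in the MHC on chromosome 17, while B2m is on chromosome 2 and Psmb10 and Nlrc5 are on chromosome 8.

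The promoters of 4 members are printed because listed peaks covered part or all of them. Each runs 5′ to 3′ on the gene's strand from 250 bp before to 50 bp after the start site, as given by RefSeq for GRCm38.p6. Capitals mark matches, on either strand, to the inverted CCAAT box ATTGG, the core TGACG of the cyclic AMP response element (CRE), the GC box GGGCGG, the interferon-stimulated response element core GAAANNGAA, the TATA box TATAAA and the NF-kB consensus, where these occur.
Tap1, chr17:34187306-34187605, plus strand, which also holds the start of Psmb9 on the other strand: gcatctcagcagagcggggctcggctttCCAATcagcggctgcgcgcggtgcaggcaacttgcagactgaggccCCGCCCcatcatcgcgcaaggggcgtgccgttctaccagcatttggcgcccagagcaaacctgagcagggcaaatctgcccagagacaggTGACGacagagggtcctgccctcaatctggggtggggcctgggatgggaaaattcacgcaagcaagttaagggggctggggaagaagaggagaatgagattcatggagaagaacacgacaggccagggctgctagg
B2m, chr2:122147437-122147736, plus strand: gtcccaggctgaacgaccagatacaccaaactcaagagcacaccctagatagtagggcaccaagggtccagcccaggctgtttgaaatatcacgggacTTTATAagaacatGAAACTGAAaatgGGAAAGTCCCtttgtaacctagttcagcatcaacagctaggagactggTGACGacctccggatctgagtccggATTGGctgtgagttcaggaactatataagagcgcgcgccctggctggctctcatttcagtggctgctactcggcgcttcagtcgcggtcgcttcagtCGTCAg
H2-K1, chr17:34000284-34000583, minus strand: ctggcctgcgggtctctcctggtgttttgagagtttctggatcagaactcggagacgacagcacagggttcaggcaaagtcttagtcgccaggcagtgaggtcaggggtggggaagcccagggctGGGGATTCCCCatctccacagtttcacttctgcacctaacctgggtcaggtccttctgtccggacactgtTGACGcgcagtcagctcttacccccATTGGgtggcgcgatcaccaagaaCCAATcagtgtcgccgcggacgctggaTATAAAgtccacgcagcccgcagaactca
H2-D1, chr17:35262844-35263143, plus strand: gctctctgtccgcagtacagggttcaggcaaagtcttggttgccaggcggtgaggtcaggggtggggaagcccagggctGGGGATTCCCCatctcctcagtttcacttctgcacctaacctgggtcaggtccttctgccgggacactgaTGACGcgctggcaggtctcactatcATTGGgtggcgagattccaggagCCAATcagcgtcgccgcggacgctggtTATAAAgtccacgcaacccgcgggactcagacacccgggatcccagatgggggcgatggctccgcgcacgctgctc

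The CRE core and the CCAAT box were both present in the promoters of Tap1, Psmb9, B2m, H2-K1 and H2-D1, that is, in 5 of the 8 members with a RefSeq promoter entry. The windows of Tap1 and Psmb9 overlap, and their 3 matches (CRE core, CCAAT box and GC box) are the same bases read from either start, so the count rests on 4 promoters. Of these, H2-K1 and H2-D1 are related, with 66.0% identity over their aligned windows (229 of 347 columns). Columns where a gap faced a base were counted, so identity over paired bases was higher. The 4 promoters are thus not independent. Over all 32851 promoters of the same length, 20.8% held the CRE core and 37.4% held the CCAAT box on either strand, and 7.73% held both. In B2m the CRE core began 78 bp and the CCAAT box 53 bp before the start, in H2-D1 they began at 101 and 76 bp, and in H2-K1 at 55 and 30 bp before the start site used for the printed window. All 3 pairs lay on the gene's strand, with 25 bp between their first bases. The shared promoter of Tap1 and Psmb9 had another arrangement, with the CRE core 86 bp and the CCAAT box 222 bp before the Tap1 start, on opposite strands. The interferon-stimulated response element core, searched only as the letters GAAANNGAA, was found in B2m alone, 139 bp before the start, and in 8.56% of all promoters. Other forms of this element were not searched. The other members, H2-K1 and H2-D1 among them, may therefore hold one that this pattern misses, and nothing is read from their lack of a match. The NF-kB consensus was found in B2m, H2-K1 and H2-D1 and in 8.46% of all promoters. In H2-K1 and H2-D1 its matches overlapped, read on both strands and shifted by 1 base. The GC box was found in Tap1, Psmb9 and Tapbp, against 35.7% of all promoters. TATAAA or its complement was found in B2m, H2-K1, H2-D1 and Psmb8, against 13.6%. It began 26 bp before the start in H2-D1, 237 bp before in Psmb8 and, on the other strand, 152 bp before in B2m. In H2-K1 it began 22 bp after the start used for the printed window. The H2-K1 and H2-D1 distances are thus counted from starts placed differently in their related sequence. An interferon gamma-activated site (TTCNNNGAA) was found in Psmb8 alone, 97 bp before the start, against 8.3%. The ETS core (CCGGAA) and the AP-1 site (TGANTCA) occurred in none of the members' windows and in 14.9% and 7.81% of all promoters. GC content was 61.0% for Tap1, 62.0% for Psmb9 and 62.3% for H2-D1, against a median of 52.7% over all promoters, while B2m had 52.3% and Psmb10 45.7%. These matches describe letters and say nothing of which factor was bound.

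Within their windows, 8 of the 10 members had a peak in WT1, 6 in WT2, 5 in KI1 and 0 in KI2. Among all protein-coding genes the shares were 38.0% and 47.1% in the WT lists and 33.5% and 6.75% in the miR-187 lists. The members' shares were thus above those of all genes in 3 lists and below in KI2, although the members' median window was 25348 bp against 37169 bp for all genes. Because neighbouring genes share peaks, these counts rest on 6, 7, 3 and 0 distinct peaks. A peak in both WT lists and neither miR-187 list was seen for 4 members, Tapbp, Psmb9, Psmb10 and H2-K1, whereas 9.04% of all genes had this pattern. The opposite pattern was seen for 0 members and 0.169% of all genes. No member had a peak in all 4 lists, and at most the 6.75% of all genes with a peak in KI2 could have one. Since this contrast chose the members, nothing is read from the comparison of these shares.

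The count for WT alone also depended on the 10 kb edge. For Tapbp the last peak inside the window lay 9308 bp from the gene (WT2, fold 5.24). The first ones outside lay at 10132 bp in WT2, 10172 bp in KI1 and 10200 bp in WT1, with fold enrichments of 4.98, 7.21 and 6.25. All 3 sat 58 to 126 bp upstream of the first base of Daxx, a histone H3.3 chaperone gene. For H2-K1, peaks between 14718 and 14834 bp away were listed in both WT libraries and KI1. With a window of 15 kb, chosen after seeing these values, 1 member, Psmb10, had peaks in both WT lists alone, against 9.22% of all genes.

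**Figure D1:**
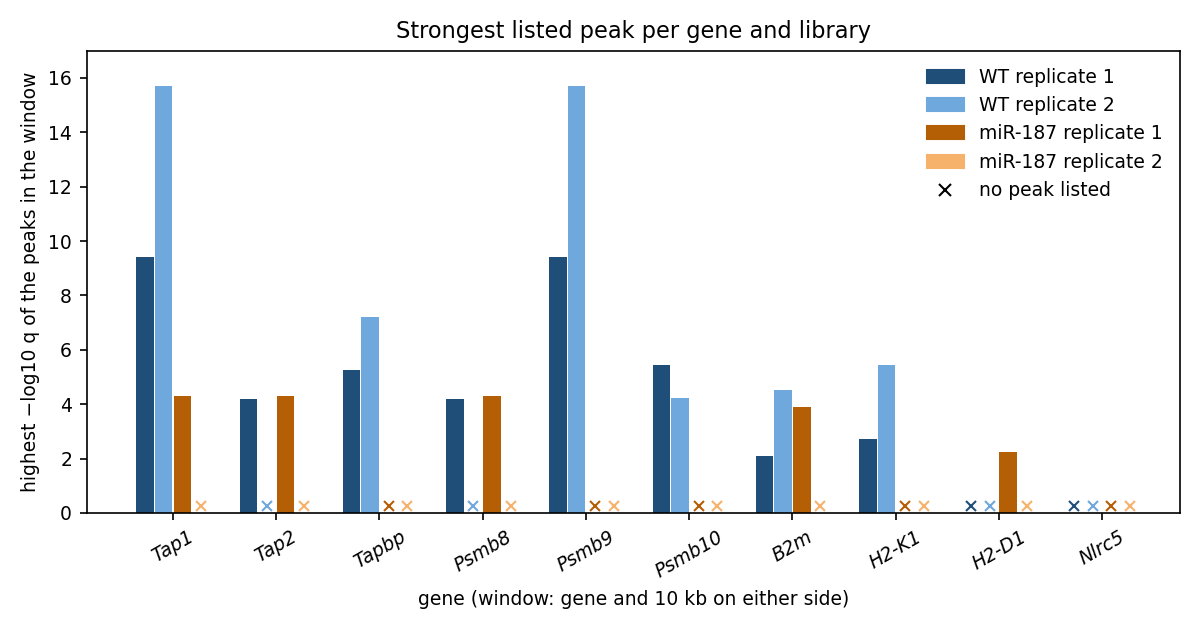
Highest −log10 q among the listed peaks in each gene's window (the gene and 10 kb on either side), for the 4 libraries; a cross marks a gene with no listed peak. Bars for Tap1 and Psmb9 show the same peak in WT, at 9.40 and 15.7, while KI2 has only crosses.

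The peak between Tap1 and Psmb9 was the strongest of all member peaks. These genes are transcribed away from each other with 225 bp between them, and 1 region, chr17:34187149-34188028, covered both starts and reached into the first part of Tap1. In WT1 the peak was 880 bp wide (chr17:34187149-34188028), with a fold enrichment over local background of 7.58 and a −log10 q of 9.40. In WT2 it was 687 bp wide (chr17:34187281-34187967), with a fold enrichment of 8.38 and a −log10 q of 15.7. The summits were 54 bp apart, 138 and 192 bp inside Tap1. The replicates gave a mean fold of 7.98 ± 0.569 (SD, n = 2). Only 167 of 9452 peaks in WT1 and 126 of 12298 in WT2 were at least as strong, and it was the strongest peak between Tapbp and H2-D1 in both lists.

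Neither miR-187 list held a peak in that region. In KI1 the nearest peaks were 52.3 kb to the left and 9.98 kb to the right, and in KI2 they were 546 kb and 75.6 kb away. All 300 bp of the Tap1 and of the Psmb9 promoter windows lay inside the peak in both WT lists and 0 bp in the miR-187 lists. By the window rule, however, Tap1 had a peak in KI1 as well, because its window reached the peak next to Psmb8.

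**Figure D2:**
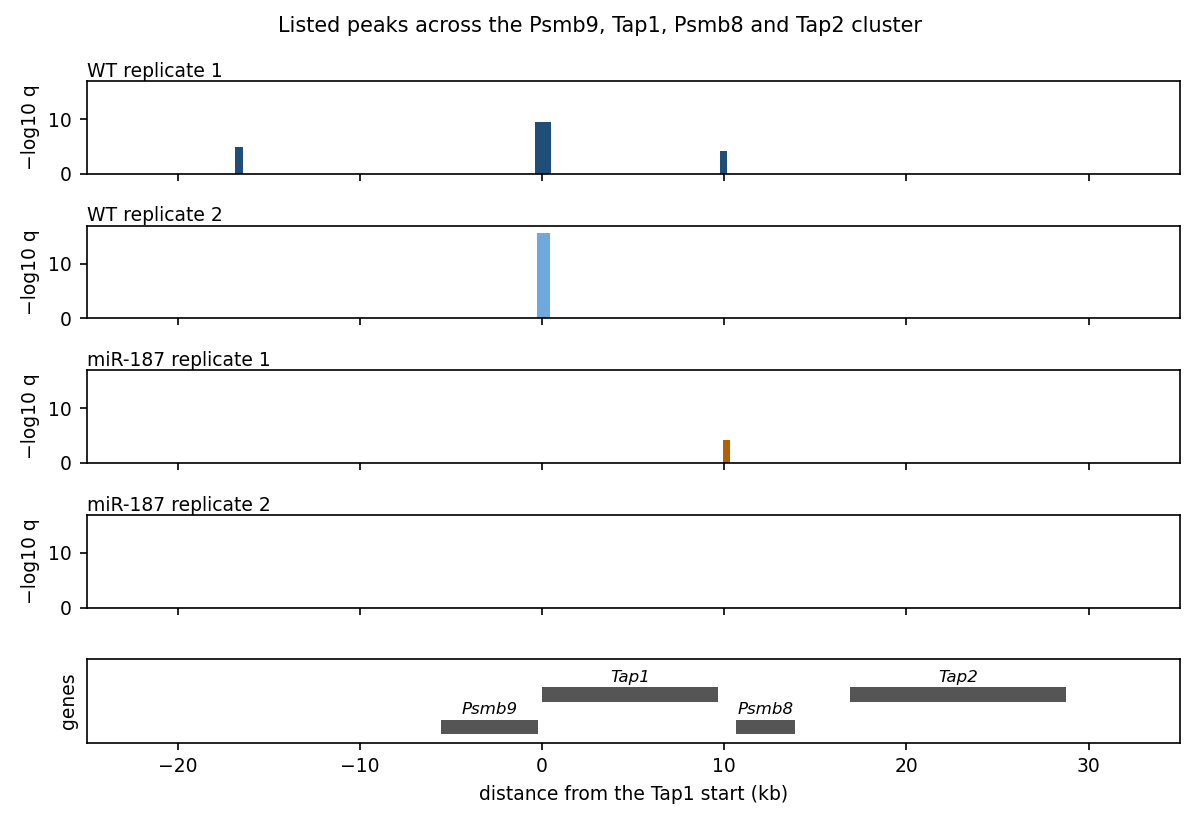
Listed peaks (width to scale, height −log10 q) around the Tap1 start (distance in kb), by library, with the 4 member genes below. The peak at the shared start of Tap1 and Psmb9 is in the WT panels only, and the one near Psmb8 at about 10 kb is in WT1 and KI1.

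The middle of the cluster, between Tap1 and Psmb8, gave a different distribution. A region 5′ of Psmb8, chr17:34197336-34197808, was listed in WT1 (chr17:34197336-34197725), with a fold of 5.45 and a −log10 q of 4.19. It was also listed in KI1 (chr17:34197517-34197808), with a fold of 5.67 and a −log10 q of 4.29. The summits lay 569 and 490 bp upstream of the Psmb8 start. The peak was in neither WT2, the deepest library, nor KI2, so the groups overlapped. Tap2, the partner of Tap1 in the transporter, had a window peak only through this region, whose summits were 6853 and 6774 bp from the gene. Psmb8 itself had 0 bp of its 300 bp promoter window covered in all 4 lists.

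Tapbp, farther to the left on chromosome 17, was reached only by peaks of its neighbours. The region chr17:33915781-33916212 was listed in both WT libraries, with folds of 5.93 in WT1 and 4.39 in WT2. Its summits were 159 and 247 bp upstream of the start of Zbtb22, a zinc finger gene, and 3461 and 3549 bp upstream of Tapbp. WT2 had another pair, at chr17:33910026-33910358 inside Daxx (fold 5.24) and at chr17:33929511-33929899 by the start of Rgl2 (fold 3.68). None of these was in a miR-187 list, and none of the 300 bp Tapbp promoter window was covered in any list.

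Psmb10, the third immunoproteasome subunit, had its peak within the gene. The region chr8:105937053-105937407 had a fold of 6.63 and a −log10 q of 5.43 in WT1. In WT2 (chr8:105937078-105937391) the fold was 4.60 and the −log10 q 4.25. The summits lay 1179 and 1187 bp downstream of the start, and no peak covered the promoter window. Neither miR-187 list held a peak here, a pattern that 9.04% of all genes had. Scaled to the density of KI1 and KI2, the WT1 peak was above the weakest peak listed in each, whereas the WT2 peak was below both (−log10 p 3.89 against 4.24, and 2.70 against 4.67). For WT1 scaled to KI1 this outcome was fixed, since KI1 was the deeper list.

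Of the heavy chain genes, H2-K1 was in the WT lists and H2-D1 was in 1 miR-187 list. H2-K1 had a peak at chr17:34000333-34000660 in WT1 with a fold of 4.69 and a −log10 q of 2.72. In WT2 the peak ran over chr17:34000248-34000799 with a fold of 4.86 and a −log10 q of 5.42. Its summit lay 37 bp upstream of the nearer of 2 RefSeq starts, and the peak covered all 300 bp of the promoter printed above, while that of WT1 covered 251 bp. H2-D1 had 1 peak, in KI1 at chr17:35262809-35263008, with a fold of 4.35 and a −log10 q of 2.24. That put it at percentile 6.64 of its list, near the weakest peaks listed. It covered 165 bp of the promoter window, with the summit 145 bp before the start. The H2-K1 and H2-D1 promoter windows share an exact run of at most 47 bp. That of H2-D1 also resembled the promoter window of H2-Q10, with 82.6% identity. The sources used here do not state how multiply mapped reads were treated, and the part of read mapping was not tested.

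B2m was the member seen in the most lists at its own start, 3 of 4. WT1 had a peak at chr2:122147789-122148097 (fold 4.21, −log10 q 2.09) with its summit 299 bp inside the gene. That peak was at percentile 8.83 of its list, also near the weakest. WT2 had one at chr2:122147415-122147821 (fold 4.31, −log10 q 4.53) with its summit 143 bp before the start. In KI1 the peak was at chr2:122147497-122147696 (fold 5.17, −log10 q 3.91), 35 bp before the start. The fold was higher in KI1 than in either WT library, and the groups overlapped in −log10 q. The peaks of WT1 and KI1 did not touch, and both met the peak of WT2. B2m also lies within the annotated span of Patl2, so the peaks cannot be assigned to one of the 2 genes. Nlrc5, the transactivator, had no peak in any list, although its window of 112938 bp was the longest of the members.

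Counting only start sites, a peak summit within 1 kb of a RefSeq start was found for 5, 4, 3 and 0 of the 8 members with a promoter entry, Tap2 and Nlrc5 having none. Among the 17492 genes with an entry the shares were 22.4% and 32.2% in WT1 and WT2, and 21.0% and 3.23% in KI1 and KI2. In WT1 the members were Tap1, Psmb8, Psmb9, B2m and H2-K1, in WT2 they were Tap1, Psmb9, B2m and H2-K1, and in KI1 they were Psmb8, B2m and H2-D1.

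The peak statistics allow the reads behind each peak to be worked out, since the fold is the pileup plus 1 over the background plus 1. The Tap1 and Psmb9 peak held 19 reads over a background of 1.64 in WT1 (exact Poisson 95% interval 11.4 to 29.7, counting error only) and 29 reads over 2.58 in WT2 (19.4 to 41.6). The other member peaks held 7 to 21 reads, so each rests on few reads. When both pileup and background of the WT1 peak are scaled to the density of KI1, they give 21.9 reads, where 9 would reach the weakest p listed there. Scaled to KI2 they give 11.2 reads, where 7 would. That the KI1 level was reached was fixed, since KI1 was deeper than WT1. The WT2 peak gives 11.2 reads against 7 needed, and 5.73 against 5 needed. With the counting intervals scaled too, WT1 gives 13.2 to 34.2 reads for KI1 and 6.74 to 17.5 for KI2, and WT2 gives 7.49 to 16.1 for KI1 and 3.84 to 8.23 for KI2. The lower limits were above the reads needed in KI1 and below them in KI2. The region was chosen for its strength in WT, so these values describe the listed peaks, and the part of depth in its absence from the miR-187 lists was not tested.

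The other member peaks were less clear on this scale. All 6 peaks of WT1 scaled to at or above the weakest peak of KI1, where 2 had a listed partner, and 4 of 6 did so for KI2, where 0 had one. Scaling to a deeper list raises every peak, so WT1 peaks had to reach the weakest peak of KI1 and of WT2. The same held for KI1 peaks scaled to WT2, and nothing is read from such cases. Of the 7 peaks of WT2, 3 reached that level for KI1 and 1, the Tap1 and Psmb9 peak, for KI2. The same step between the WT lists shows how far it can be trusted: 3 of the 7 peaks of WT2 reached the weakest p of WT1, yet 5 were listed there. In the opposite direction 6 of 6 reached it, as the greater depth of WT2 ensured, and 5 were listed, the exception being the peak next to Psmb8. In the reverse contrast, the H2-D1 peak of KI1 scaled to 6.08 reads in WT1, with 6 needed, and to 18.1 in WT2, with 9 needed, and was listed in neither. Scaling used a single density per library and is not a count of reads in the region.

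**Figure D3:**
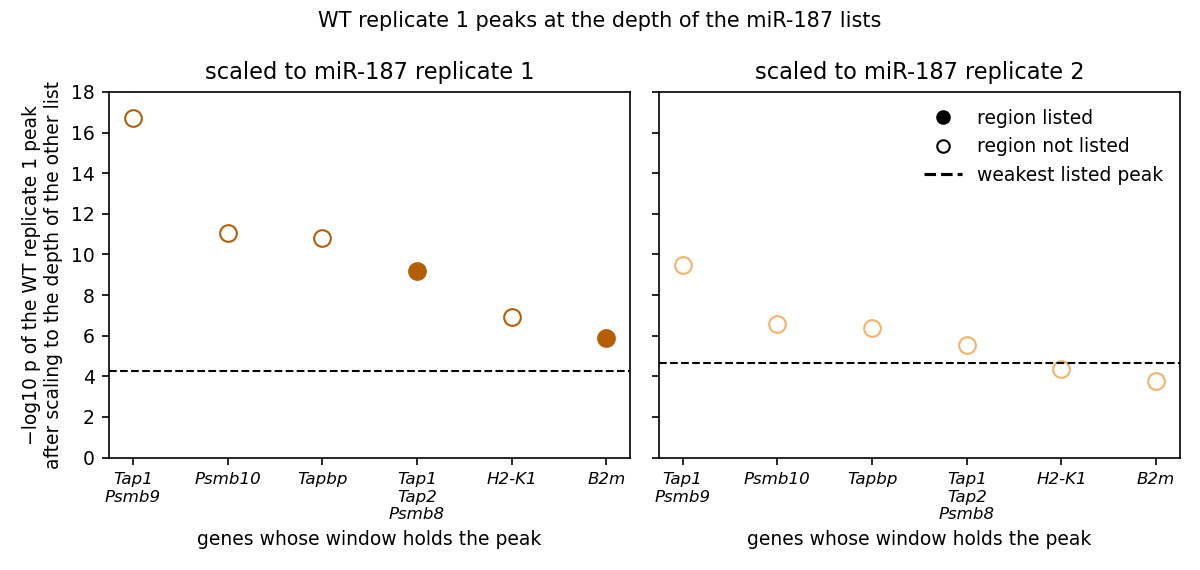
−log10 p of the 6 member peaks of WT1 after scaling pileup and background to the density of KI1 (left) and KI2 (right); the dashed line is the weakest peak listed there and filled points are regions listed there. The Tap1 and Psmb9 peak is highest and unfilled in both panels, at 16.7 and 9.47, while 4 of 6 points are above the line on the right. The left panel scales to a deeper list, so its points had to lie above the line.

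Other genes of the pathway and genes related to it were taken from 7 lists. They include 13 class II genes, 28 interferon response genes and H2-Ke6, so the pooled shares are not those of the class I pathway alone. Of these 98 genes, 59, 71, 50 and 14 had a window peak in WT1, WT2, KI1 and KI2, that is, 60.2%, 72.4%, 51.0% and 14.3%, against 38.0%, 47.1%, 33.5% and 6.75% of all genes. Neighbouring genes of these lists can share a peak, and longer genes have longer windows. Distinct peaks and window lengths are not given for the 7 lists, so nothing is read from their shares beside those of all genes. Of the 22 class I regulators, 19, 20, 17 and 5 had one (86.4%, 90.9%, 77.3% and 22.7%), and 5 had one in all 4 lists. The share of all genes with a peak in all 4 lists was not counted. It can be at most the 6.75% with a peak in KI2. Ifngr1, a chain of the interferon gamma receptor, had folds of 7.63, 6.45, 6.61 and 7.53 in the same order. Irf1, an interferon-induced transcription factor that acts on class I promoters, had folds of 5.26, 5.11, 6.80 and 6.55. Rela, a subunit of NF-kB, had 7.14, 7.41, 9.13 and 5.19. Irf2, a related factor, had 5.77, 5.77, 5.68 and 5.23. For Ifngr1 and Rela the folds of the groups overlapped. Both KI libraries were above both WT libraries for Irf1 and below them for Irf2, there by as little as 5.68 against 5.77. How often all genes show such an order was not counted, so nothing is read from it. Rfx5, which binds class I and II promoters, had peaks in the WT lists alone, with folds of 6.82 and 5.76, as did Jak2, a kinase of the interferon gamma receptor, with 4.29 and 4.35.

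Peptide loading and trimming genes showed a similar spread, with 9, 11, 10 and 4 of 12, each share above that of all genes. Lnpep, an aminopeptidase that trims peptides in endosomes, had folds of 6.39, 7.17, 5.71 and 6.32. The KI values were below the WT ones, by as little as 6.32 against 6.39. Nothing is read from this order either, as its share among all genes was not counted. Canx and Calr, chaperones of class I folding, had folds of 6.32, 5.25, 7.73 and 5.30 and of 6.02, 6.19, 6.37 and 5.0, and their groups overlapped. Proteasome activator and assembly genes had peaks for 6, 5, 5 and 0 of 6, above the shares of all genes except in KI2. The constitutive counterparts of the immunoproteasome subunits had peaks for 2, 1, 0 and 0 of 3, above the share of all genes in WT1 alone. Psmb6, which Psmb9 replaces, had folds of 5.06 and 6.49 in the WT lists and none in the miR-187 lists. The list of nonclassical class I genes had 6, 12, 6 and 0 of 14 (42.9%, 85.7%, 42.9% and 0%), below all genes in KI2. Without H2-Ke6, a hydroxysteroid dehydrogenase gene named for its place near H2-K, it had 5, 11, 6 and 0 of 13. Class II genes had 4, 6, 4 and 1 of 13 (30.8%, 46.2%, 30.8% and 7.69%), below all genes in WT1, WT2 and KI1. Interferon response genes had 13, 16, 8 and 4 of 28 (46.4%, 57.1%, 28.6% and 14.3%), below all genes in KI1. H2-Q4, a nonclassical heavy chain, had −log10 q of 4.40 and 10.6 in the WT lists, H2-Eb1, a class II beta chain, had folds of 6.41 and 5.15, and neither was in a miR-187 list. In all, 10 of the 98 genes (10.2%), H2-Ke6 among them, were seen in each WT list and in no miR-187 list, near the 9.04% of all genes. None had the opposite pattern, which 0.169% of all genes had.

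**Figure D4:**
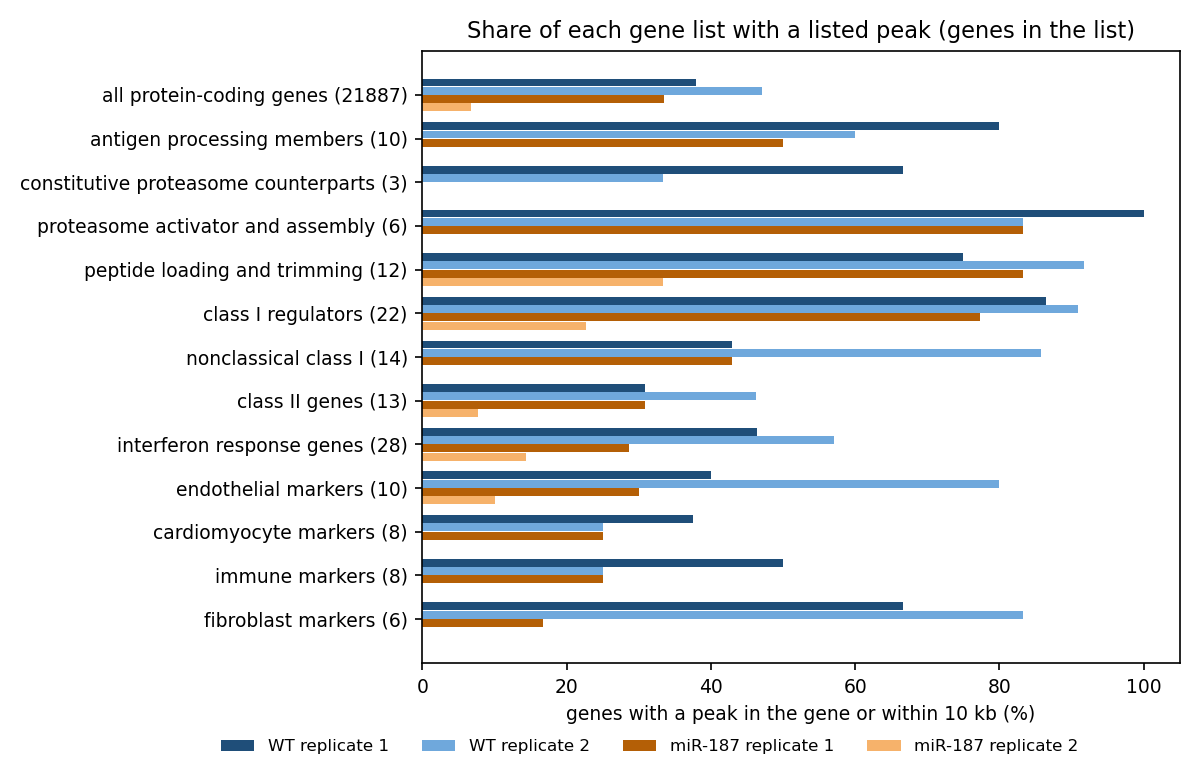
Percent of the genes of each list with a listed peak in the gene or within 10 kb, by library; the number of genes in each list is in brackets, H2-Ke6 included among the nonclassical class I genes. The members have shares of 80.0, 60.0, 50.0 and 0%, beside 38.0, 47.1, 33.5 and 6.75% of all protein-coding genes.

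Across the interval from Tapbp to H2-D1 (chr17:33919478-35267497, 1.35 Mb) there were 26, 45, 15 and 3 peaks. They made up 0.275% of all peaks in WT1 (Wilson 95% interval 0.188 to 0.403%), 0.366% in WT2 (0.274 to 0.489%), 0.200% in KI1 (0.121 to 0.330%) and 0.202% in KI2 (0.0688 to 0.593%). The intervals overlapped between groups. The strongest peak of the interval in KI2 was inside H2-Ab1, a class II beta chain gene, at chr17:34263184-34263474 with a fold of 7.24.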

How the data were processed

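ATAC-seq peaks of 2 WT and 2 miR-187 libraries were used as deposited, 1 list per library and not pooled. Per the labels' processing notes, the tools were FastQC, Bowtie2 2.2.6, SAMtools 1.10, deepTools 3.3.2, MACS2 2.2.7.1, ChIPseeker, DiffBind and HOMER 4.11, with build mm10 (GRCm38). Peak calling settings and the treatment of duplicate or mitochondrial reads are not given in the sources used here. The deposited values were the fold (ratio to local background), −log10 p, −log10 q and a score, which is 10 times the −log10 q. Depth was inferred from the peak statistics, since the reads were not analysed here.

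The members and gene lists were chosen with earlier results of these data known. Summits were matched to gene boundaries of the RefSeq table for GRCm38.p6, and 6, 20, 6 and 0 scaffold peaks were left out. Peaks overlapping by 1 bp made 1 region. Percentile ranks are of −log10 q within a list. Pileup and background per 200 bp were solved from fold and p for 100.0% of the peaks of each list. Genes named from the lists were those seen in all 4 lists or in 1 group only, at most 8 per list by the lowest rank. Python 3.11.15, pandas 2.3.3, scipy 1.17.1 and Biopython 1.88 were used. Alternatives were other windows, a −log10 q minimum of 5, equal list lengths, placing peaks by overlap and leaving out each library.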

Additional observations from a re-analysis of the deposited data

How the results depend on the processing

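The region of Tap1 and Psmb9 was chosen as strong and found in WT alone, and the alternatives run on it (−log10 q of at least 5, equal list lengths, 50% reciprocal overlap, leaving out a library) can only remove peaks, so its unchanged listing says nothing of stability. The count of members in both WT lists alone (4) was 2 with equal numbers of peaks per list, 1 with a window of 15 kb, and 4 to 6 when 1 library was left out. The count in the miR-187 lists alone (0) was 0 to 1 on leaving out a library, and 1, H2-D1, without miR-187 replicate 2. The mean difference in distinct member peaks (WT minus miR-187, 5.0) was 3.0 with −log10 q of at least 5 and 1.0 with equal numbers of peaks. The difference in the share of peaks in the MHC interval (0.119 percentage points) turned to -0.140 with −log10 q of at least 5. The difference in genes of the 7 lists (33.0) was 21.0 with −log10 q of at least 5 and 2.5 with equal numbers of peaks. The cause of the changes at −log10 q of at least 5 was not tested, while equal list lengths by construction keep fewer peaks of the 3 longer lists. The difference in members with a window peak (4.5) was 2.0 with equal numbers of peaks, 2.0 without miR-187 replicate 2 and 7.0 without miR-187 replicate 1. That in start site peaks (3.0) was 1.5 with a start window of 250 bp and ran from 1.5 to 4.5, again without miR-187 replicates 2 and 1. The count of 6 members in WT alone was also without miR-187 replicate 1. No paired analysis was possible because the results come from no test and the labels link no libraries by their numbers. The shallowest library was miR-187 replicate 2. The deepest, WT replicate 2, lacked the peak next to Psmb8 and that of H2-D1. The part of depth in missing peaks was not tested.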
